A study of Mus musculus with 6 samples.

Results

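The genes of sterol synthesis and cholesterol handling were examined in leukemic myeloid cells with and without Rpl22. They were 29 genes, chosen by their place in the pathway, of 29374 genes with an estimated read in the series, and all 29 were among the 16656 genes tested. They comprise 6 genes that control the transcription factor Srebp2, 7 enzymes of the early mevalonate pathway, 11 enzymes of the squalene and sterol steps, 3 genes of sterol transport and efflux, and 2 LXR receptors.

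RNA from CD11b+Gr1+ splenocytes was sequenced in 6 libraries, 3 from Rpl22+/+ and 3 from Rpl22-/- tumor-bearing mice, and both genotypes carried Mll-AF9. Mll-AF9 is a fusion oncogene, present here as a knockin allele, that drives acute myeloid leukemia, and Rpl22 is a component of the large subunit of the ribosome. By the study's methods, Rpl22-deficient mice on a C57BL/6 background were crossed with the knockin mice. The methods state that the Rpl22 mice of all experiments were young adults. They describe the knockin mice of the survival and burden studies as killed when symptoms appeared or at set times. No separate age is given for the tumor-bearing mice of these cells. Separate mice are not stated in the labels as the source of the 3 libraries within a genotype, and the study's description of these data names 1 leukemia explant of each genotype, so the p-values may measure technical spread alone, and a difference between genotypes cannot be told apart from a difference between leukemias.

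Cells make cholesterol from acetyl-CoA through mevalonate, farnesyl pyrophosphate, squalene and lanosterol. When membrane sterol is low, the escort protein Scap carries Srebp2 from the endoplasmic reticulum to the Golgi apparatus, where the proteases encoded by Mbtps1 and Mbtps2 release the active factor, which turns on genes for synthesis and uptake. When sterol is high, Insig proteins hold Scap back, and oxysterols activate the LXR receptors, which turn on exporters such as Abca1 and Abcg1. Farnesyl pyrophosphate also feeds protein prenylation, ubiquinone and dolichol.

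Srebp2 binds sterol regulatory elements and acts with the factors NF-Y and Sp1, so the promoters of the members were searched for the core TCACNCCAC, the NF-Y box CCAAT and the Sp1 box GGGCGG on both strands. Promoter windows of RefSeq (GRCm38.p6), which run from 250 bases before to 50 bases after a gene's start, were at hand for 24 of the 29 members, and Fdps, Fdft1, Sqle, Stard4 and Abcg1 had none. The sterol regulatory element core was found in 1 of the 24 members, Hmgcs1, beside 1.44% of all 27025 genes with a window. The NF-Y box was found in 17 of the 24 members (70.8%), beside 41.1% of all genes, and the Sp1 box in 20 (83.3%), beside 38.2%. Both boxes stood in 16 members (66.7%), beside 15.8% of all genes, and no match of 1 motif overlapped a match of another in the members' windows. A match describes these letters and does not show a bound site. The search allowed no other letters at the fixed positions and saw only the window, so lack of a match does not show lack of a sterol regulatory element.

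The 200 bases upstream of the start are printed 5′ to 3′ for Hmgcs1, which held the only sterol regulatory element core, for 4 genes that were lower in Rpl22-/- (Srebf2, Mvd, Msmo1 and Hsd17b7) and for 3 that were higher (Lss, Tm7sf2 and Abca1). Capitals mark the matches of the 3 motifs on either strand.
Hmgcs1 (chr13:119690151-119690350, plus strand): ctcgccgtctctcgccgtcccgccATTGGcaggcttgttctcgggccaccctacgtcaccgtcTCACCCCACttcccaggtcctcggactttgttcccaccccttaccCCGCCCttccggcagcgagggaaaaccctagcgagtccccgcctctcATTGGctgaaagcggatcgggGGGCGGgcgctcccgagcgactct
Srebf2 (chr15:82147069-82147268, plus strand): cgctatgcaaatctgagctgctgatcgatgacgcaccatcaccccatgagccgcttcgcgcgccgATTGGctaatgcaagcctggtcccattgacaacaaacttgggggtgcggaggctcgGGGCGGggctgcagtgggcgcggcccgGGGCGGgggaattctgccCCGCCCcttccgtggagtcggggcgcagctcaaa
Mvd (chr8:122443423-122443622, minus strand): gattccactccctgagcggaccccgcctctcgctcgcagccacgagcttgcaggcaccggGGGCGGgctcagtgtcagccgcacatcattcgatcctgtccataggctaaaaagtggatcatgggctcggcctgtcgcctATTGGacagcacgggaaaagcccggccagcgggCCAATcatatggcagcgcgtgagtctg
Msmo1 (chr8:64733579-64733778, minus strand): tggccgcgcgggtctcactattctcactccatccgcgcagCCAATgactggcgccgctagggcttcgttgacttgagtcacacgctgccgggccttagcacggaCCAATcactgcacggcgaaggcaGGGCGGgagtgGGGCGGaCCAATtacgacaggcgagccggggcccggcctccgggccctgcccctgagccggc
Hsd17b7 (chr1:169969206-169969405, minus strand): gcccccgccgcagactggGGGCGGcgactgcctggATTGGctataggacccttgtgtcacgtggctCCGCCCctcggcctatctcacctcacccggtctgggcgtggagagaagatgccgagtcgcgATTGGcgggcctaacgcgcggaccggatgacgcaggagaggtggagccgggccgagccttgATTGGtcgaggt
Lss (chr10:76531405-76531604, plus strand): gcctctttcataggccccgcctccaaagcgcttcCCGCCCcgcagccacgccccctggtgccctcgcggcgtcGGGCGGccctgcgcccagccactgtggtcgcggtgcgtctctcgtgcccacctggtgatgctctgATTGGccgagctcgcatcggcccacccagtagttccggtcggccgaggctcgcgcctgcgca
Tm7sf2 (chr19:6067851-6068050, minus strand): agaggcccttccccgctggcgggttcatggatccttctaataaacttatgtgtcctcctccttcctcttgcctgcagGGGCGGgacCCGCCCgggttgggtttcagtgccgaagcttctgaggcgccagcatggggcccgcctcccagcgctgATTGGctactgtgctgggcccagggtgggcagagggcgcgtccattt
Abca1 (chr4:53159896-53160095, minus strand): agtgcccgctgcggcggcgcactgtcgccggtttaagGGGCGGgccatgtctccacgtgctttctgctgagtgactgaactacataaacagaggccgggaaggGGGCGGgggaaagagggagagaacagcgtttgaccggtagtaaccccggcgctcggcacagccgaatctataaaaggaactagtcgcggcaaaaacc
All 4 lower genes held both an NF-Y box and an Sp1 box in the whole window. Of the 5 higher genes with a window, 2 held an NF-Y box (Lss and Tm7sf2) and 4 held an Sp1 box, while the window of Nr1h3 held none of the 3 motifs. The higher genes without an NF-Y box, Scap, Abca1 and Nr1h3, are not synthesis enzymes. Over all 24 members with a window 17 held an NF-Y box, among them members that did not pass, such as Hmgcs1 and Cyp51. The Sp1 box of Scap lay after the start.

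The libraries held between 35828500 and 102866127 estimated reads. Rpl22 itself was measured at 148, 235 and 152 CPM (reads scaled to a common library total) in Rpl22+/+ and at 58.3, 89.9 and 73.5 CPM in Rpl22-/-, and which part of the gene is deleted is not given in the sources used here. Reads remained in the knockout libraries at a lower level (log2 fold change -1.27, edgeR adjusted p = 0.0106). The 7 genes of the sorted myeloid cells summed to 5632 to 6282 CPM in Rpl22+/+ and 12818 to 15176 CPM in Rpl22-/- (1 of 7 higher, Mpo, with a log2 fold change of 2.99, and 2 lower). The 2 lower were Itgam and Ly6g, which encode CD11b and the Ly6G part of the Gr1 epitope and were detected in both genotypes, at 1928 and 159 CPM in Rpl22+/+ and 948 and 14.2 CPM in Rpl22-/-. The summed primary granule genes rose from 2389 to 4095 CPM in Rpl22+/+ to 22478 to 27374 CPM in Rpl22-/- (5 of 5 higher), and the secondary and tertiary granule genes fell from 42895 to 57972 to 11595 to 15903 CPM (7 of 7 lower). Erythroid genes summed to 60.3 to 92.7 CPM in Rpl22+/+ and 399 to 790 CPM in Rpl22-/- (6 of 7 higher), and T cell genes to 49.9 to 65.6 and 18.2 to 21.3 CPM (7 of 7 lower). Monocyte and macrophage genes summed to 989 to 1237 and 461 to 627 CPM (7 higher and 3 lower of 13 tested), B cell genes to 1773 to 2531 and 2016 to 3502 CPM (2 of 7 lower), platelet genes to 4.03 to 5.60 and 12.6 to 13.0 CPM (1 of 3 higher) and stromal genes to 67.8 to 81.1 and 74.9 to 95.4 CPM (2 of 5 lower). Marco, Timd4, Pf4, Gp1ba, Ppbp, Col1a2, Col3a1 and Cdh5 stayed below 1 CPM in all 6 libraries. The part of these differences in the results on sterol genes was not tested, and in bulk samples fewer cells of a type and less RNA per cell cannot be told apart. Rpl22+/+ replicate 2 stood apart from the other Rpl22+/+ libraries (correlations of log2 CPM of 0.926 and 0.934, beside 0.992 between replicates 1 and 3), and it had the highest CPM of its genotype for 21 of 28 members, or for 13 of 28 by TPM, an abundance scaled for transcript length (Idi1 left aside).

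Members moved in both directions. A gene passed when its Benjamini-Hochberg adjusted p over all genes tested was under 0.05 in edgeR's quasi-likelihood test, and 27.6% of all genes tested did so, 13.7% higher and 13.8% lower in Rpl22-/-. Of the 29 members 10 passed (34.5%), 6 higher (Scap, Fdps, Lss, Tm7sf2, Abca1 and Nr1h3) and 4 lower (Srebf2, Mvd, Msmo1 and Hsd17b7), which is near the share of all genes. With a block for the replicate number 6 members passed higher and 8 lower, beside 17.7% and 16.1% of all genes. Without Rpl22+/+ replicate 2 it was 7 higher and 7 lower, beside 20.7% and 19.3% of all genes, and without Rpl22-/- replicate 1 it was 4 higher and 2 lower, beside 8.68% and 8.8% of all genes. Among genes averaging 50 counts or more it was 6 higher and 7 lower, beside 15.4% and 18.3% of all genes, and with the DESeq2 test 6 higher and 8 lower, beside 14.9% and 16.6%. With a correction for GC content it was 5 higher and 11 lower of the 29 members, beside 18.5% and 19% of all genes, and with that and the block 7 higher and 14 lower of 29, beside 23.3% and 22.2%. The lower counts with the GC correction lie above the shares of all genes, which the 4 lower of the reported fit do not, and no test over the members was run. The median log2 fold change was -0.30 over the members and 0.07 over all genes tested, and 19 of 29 members (65.5%) had a value below 0, beside 45.8% of all genes. In 19 of 29 members (65.5%) the CPM of the genotypes did not overlap, beside 46.1% of all genes.

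**Figure D1:**
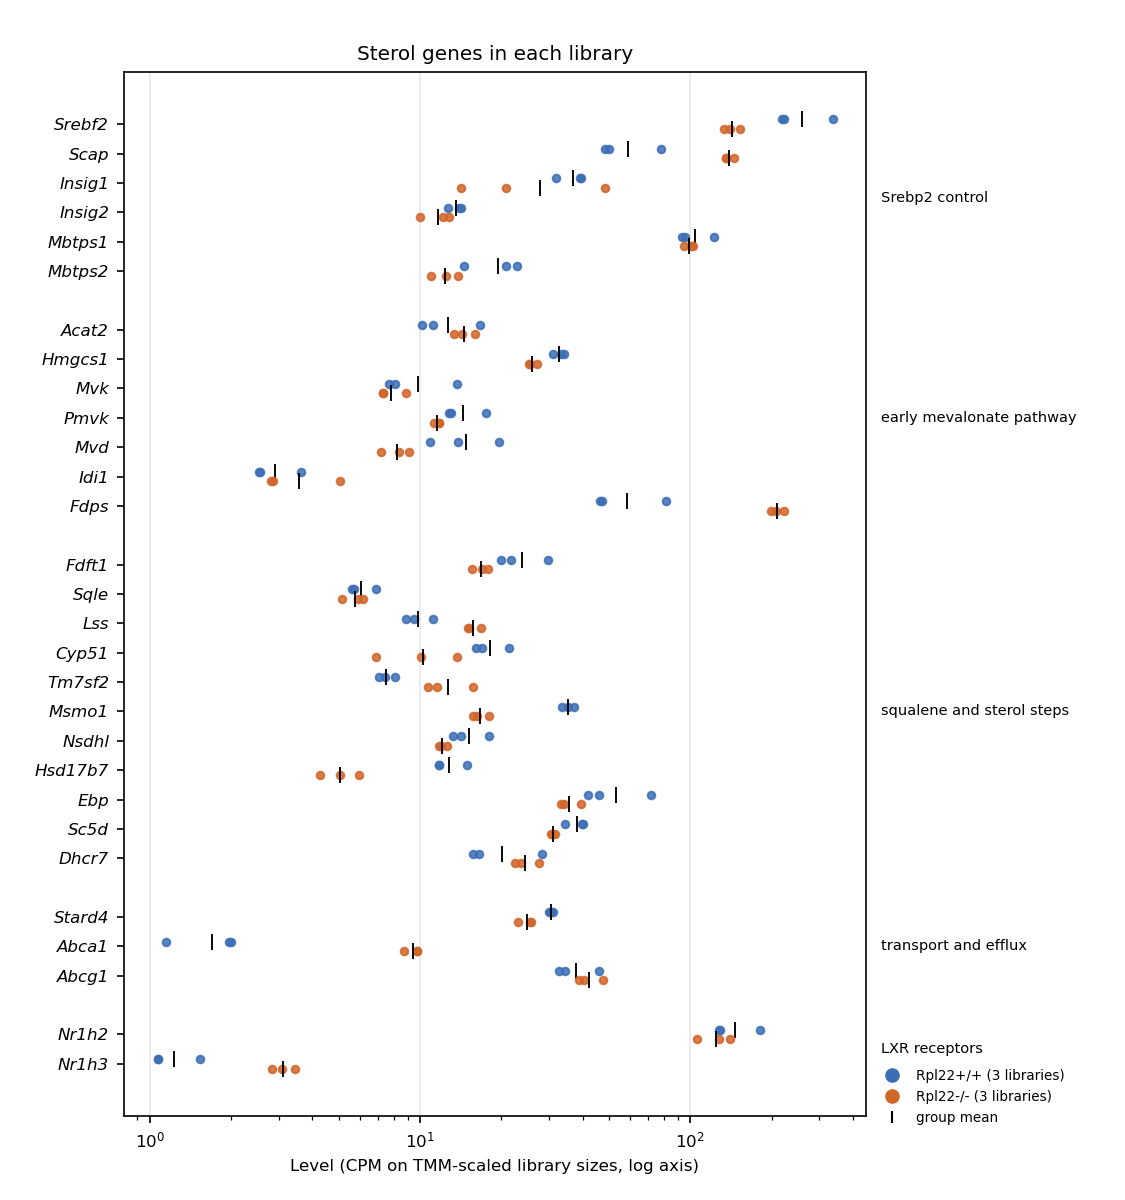
Level of each of the 29 genes in each library, as CPM on TMM-scaled library sizes on a log axis, grouped by role, with Rpl22+/+ libraries in blue, Rpl22-/- libraries in orange and a black tick at each group mean. Fdps, Scap, Abca1 and Nr1h3 lie to the right in all 3 Rpl22-/- libraries, and Srebf2, Msmo1 and Hsd17b7 to the left.

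Among the 6 genes that control Srebp2, the transcript of the factor itself fell and that of its escort rose. Srebf2, which encodes Srebp2 (chr15:82031382-82089580 on GRCm39), was at 219, 336 and 221 CPM in Rpl22+/+ and 141, 153 and 133 CPM in Rpl22-/-. The groups did not overlap, and the means of 259 ± 66.8 and 142 ± 10.1 CPM (SD, n = 3) gave a log2 fold change of -0.86 with a standard error (SE) of 0.20 (edgeR adjusted p = 0.0209). It did not pass without Rpl22-/- replicate 1 (edgeR adjusted p = 0.0772) and without Rpl22-/- replicate 3 (edgeR adjusted p = 0.088), with log2 fold changes of -0.85 and -0.81.

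Scap (chr9:110162356-110214018) was at 48.3, 77.7 and 50.2 CPM in Rpl22+/+ and 136, 145 and 135 CPM in Rpl22-/-. Every Rpl22-/- library exceeded every Rpl22+/+ library, with a log2 fold change of 1.24 (SE 0.21, edgeR adjusted p = 0.00608). Per unit of length, the TPM ratio of Scap to Srebf2 went from 0.253, 0.274 and 0.257 in the Rpl22+/+ libraries to 1.20, 1.07 and 1.13 in the Rpl22-/- libraries. Among genes averaging 50 counts or more, those of chromosome 9 had a median log2 fold change of 0.34 and those of chromosome 4 one of 0.43, while the medians of the other chromosomes lay between -0.08 and 0.08. The 124 genes that start within 5 Mb of Scap had a median of 0.52. Of those neighbours, 18 had a higher log2 fold change than Scap, and the part of this in its difference was not tested.

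The Insig genes, which retain Scap, did not pass. Insig1 was at 31.8, 39.0 and 39.3 CPM in Rpl22+/+ and at 14.2, 20.8 and 48.3 CPM in Rpl22-/-. A single library, Rpl22-/- replicate 3, lay above all Rpl22+/+ libraries while the other two lay below them, and the log2 fold change was -0.40 (SE 0.43, edgeR adjusted p = 0.554). Without that library it was -1.06 (edgeR adjusted p = 0.0369). Both Insig1 transcripts tested were highest there: the coding transcript was at 7.37, 9.21 and 21.7 TPM and the retained-intron transcript at 1.33, 2.48 and 12.7 TPM in Rpl22-/- replicates 1, 2 and 3. Insig2 was at 14.2, 12.7 and 13.9 CPM in Rpl22+/+ and 12.8, 12.2 and 10.03 CPM in Rpl22-/-, with overlapping groups and a log2 fold change of -0.22 (SE 0.15, edgeR adjusted p = 0.336).

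The proteases that release Srebp2 did not pass either. Mbtps1, the site-1 protease, had a log2 fold change of -0.07 (SE 0.15), between means of 104 ± 16.2 and 99.2 ± 3.72 CPM (SD, n = 3), and its sign turned under 4 of 18 other ways of processing. Mbtps2, the site-2 protease, was at 14.6 to 22.8 CPM in Rpl22+/+ and 10.98 to 13.8 CPM in Rpl22-/- (log2 fold change -0.65, edgeR adjusted p = 0.0579). Mbtps2 passed in 5 of the 18 other ways of processing, among them the replicate block (edgeR adjusted p = 0.0222).

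**Figure D2:**
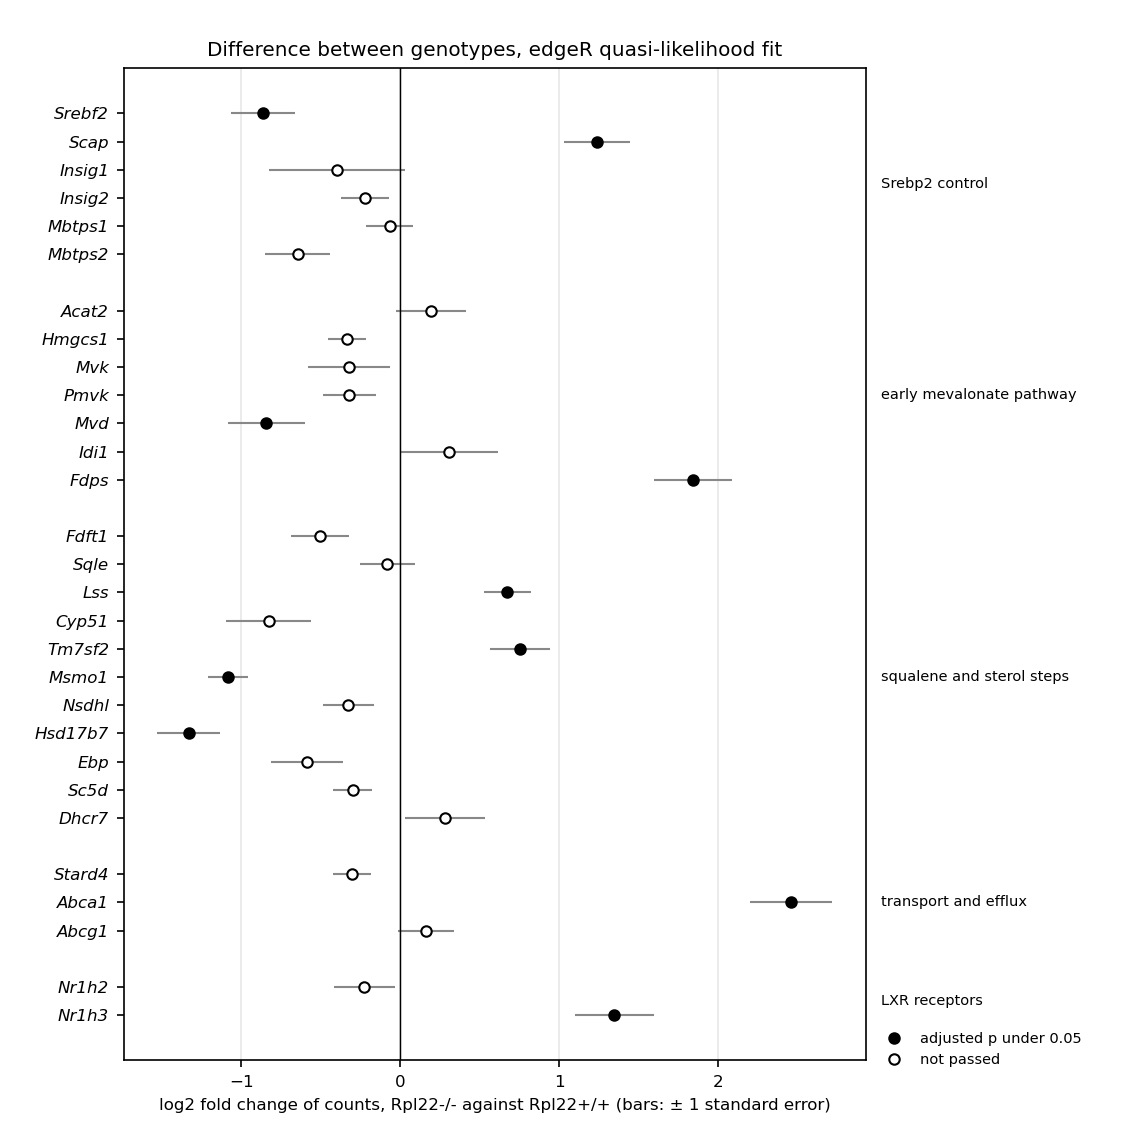
log2 fold change of counts for each gene, Rpl22-/- against Rpl22+/+, with bars of 1 standard error on each side, where filled points had an adjusted p under 0.05. Filled points stand on both sides of 0 among the Srebp2 control genes, the mevalonate enzymes and the sterol enzymes, from -1.33 for Hsd17b7 to 2.46 for Abca1.

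In the early mevalonate pathway, which leads from acetyl-CoA to farnesyl pyrophosphate, the last enzyme rose and the one that makes isopentenyl pyrophosphate fell. Fdps, farnesyl pyrophosphate synthase (chr3:89000895-89009266), was at 46.4, 81.5 and 47.2 CPM in Rpl22+/+ and 208, 221 and 199 CPM in Rpl22-/-. The groups lay far apart, with a log2 fold change of 1.84 (SE 0.25, edgeR adjusted p = 0.0025), and the ratio of the mean CPM was 3.59. The 104 genes within 5 Mb of Fdps had a median log2 fold change of 0.02. Mvd, mevalonate diphosphate decarboxylase (chr8:123160340-123170161), was at 10.9, 19.6 and 13.8 CPM in Rpl22+/+ and 7.19, 9.09 and 8.38 CPM in Rpl22-/-. Its groups did not overlap (log2 fold change -0.84, SE 0.24, edgeR adjusted p = 0.0425), but it did not pass without Rpl22+/+ replicate 3 or without any of the 3 Rpl22-/- libraries, where the adjusted p ranged from 0.0582 to 0.137 (edgeR), nor in limma-voom (adjusted p = 0.0557).

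The other 5 enzymes of this stretch did not pass. Hmgcs1, which makes HMG-CoA, was at 34.2, 31.0 and 33.3 CPM in Rpl22+/+ and 25.4, 25.4 and 27.1 CPM in Rpl22-/- (log2 fold change -0.34, edgeR adjusted p = 0.0798). Its groups did not overlap, and it passed in 4 of the 18 other ways of processing, among them the fit without Rpl22+/+ replicate 2 (log2 fold change -0.42, edgeR adjusted p = 0.0145). Mvk and Pmvk, the kinases that phosphorylate mevalonate in turn, both had a log2 fold change of -0.32, with adjusted p-values of 0.411 and 0.212 (edgeR). Acat2, the cytosolic thiolase that opens the pathway, had a log2 fold change of 0.19 (edgeR adjusted p = 0.574). Idi1, isopentenyl diphosphate isomerase, was at 2.54 to 3.62 CPM in Rpl22+/+ and 2.82 to 5.06 CPM in Rpl22-/-. Its gene sum was only 0.152 of the base mean in the authors' gene table, against 0.94 to 0.99 for the other 28 members, so most of its reads lie outside the transcripts matched here and its values are incomplete.

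The squalene and sterol steps also split in the reported fit, with 2 higher and 2 lower of 11 (18.2% each way), near the 13.7% and 13.8% of all genes. With the DESeq2 test or the replicate block Fdft1, Cyp51 and Ebp of this list also passed lower, beside 16.6% and 16.1% of all genes lower. Of the 3 enzymes that remove the methyl groups at carbon 4 of the sterol, 2 were lower. Msmo1, the methylsterol monooxygenase (chr8:65171173-65186826), was at 35.1, 37.2 and 33.6 CPM in Rpl22+/+ and 15.7, 17.9 and 16.2 CPM in Rpl22-/-. The libraries of a genotype lay close together, and the log2 fold change was -1.09 (SE 0.13, edgeR adjusted p = 0.00147). Hsd17b7, the 3-ketosterol reductase of the same complex (chr1:169777104-169796810), was at 11.7, 15.0 and 11.7 CPM in Rpl22+/+ and 5.05, 4.25 and 5.93 CPM in Rpl22-/-. It fell by 1.33 on the log2 scale (SE 0.20, edgeR adjusted p = 0.00357), and no library of the groups overlapped. Nsdhl, the decarboxylating dehydrogenase that works between them, had a log2 fold change of -0.33 (SE 0.16), which did not pass (edgeR adjusted p = 0.19), with no overlap between 13.3 to 18.0 CPM in Rpl22+/+ and 11.7 to 12.5 CPM in Rpl22-/-.

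The enzyme that closes the sterol rings was higher, as was Tm7sf2, 1 of 2 genes for the reductase step after lanosterol demethylation, while the other, Lbr, was lower (log2 fold change -0.85, edgeR adjusted p = 0.00972). Lss, lanosterol synthase (chr10:76367422-76392972), was at 9.48, 11.2 and 8.87 CPM in Rpl22+/+ and 16.8, 15.1 and 15.2 CPM in Rpl22-/-. The groups did not overlap, and the log2 fold change was 0.68 (SE 0.15, edgeR adjusted p = 0.0175). Tm7sf2, a sterol reductase acting at carbon 14 (chr19:6112851-6118403), was at 8.05, 7.05 and 7.43 CPM in Rpl22+/+ and 15.7, 11.6 and 10.7 CPM in Rpl22-/-. Its highest library was Rpl22-/- replicate 1, and the log2 fold change was 0.75 (SE 0.19, edgeR adjusted p = 0.0263). Neither gene passed without Rpl22+/+ replicate 1, Rpl22+/+ replicate 3 or Rpl22-/- replicate 1, nor did Lss without Rpl22-/- replicate 3 or Tm7sf2 without Rpl22-/- replicate 2 or with the correction for GC content (adjusted p from 0.0595 to 0.0982, edgeR).

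The other 6 enzymes of these steps did not pass. Cyp51, lanosterol demethylase, was at 16.2, 21.4 and 17.0 CPM in Rpl22+/+ and 6.87, 10.1 and 13.7 CPM in Rpl22-/-. Its highest Rpl22-/- library was replicate 3, as for Insig1, and the log2 fold change was -0.83 (SE 0.27, edgeR adjusted p = 0.0621). Cyp51 passed in 5 of the 18 other ways of processing, among them the replicate block (edgeR adjusted p = 0.0269) and the fit without Rpl22-/- replicate 3 (log2 fold change -1.10, edgeR adjusted p = 0.0417). Ebp, the sterol isomerase, had a log2 fold change of -0.59 (edgeR adjusted p = 0.101), and Fdft1, squalene synthase, one of -0.50 (edgeR adjusted p = 0.0882). Ebp passed in 7 and Fdft1 in 8 of the 18 other ways of processing. Under the replicate block, 1 of these ways, their adjusted p-values were 0.0375 and 0.0498 (edgeR). Sc5d, the sterol desaturase, had a log2 fold change of -0.30 (edgeR adjusted p = 0.122), Dhcr7, which makes cholesterol from 7-dehydrocholesterol, one of 0.28 (edgeR adjusted p = 0.472) and Sqle, squalene epoxidase, one of -0.08 (edgeR adjusted p = 0.781). Sqle was level between the genotypes by TPM too, at 2.76 ± 0.10 and 2.77 ± 0.15 TPM (SD, n = 3), with an SE of 0.17 on its log2 fold change of counts. In the positions of the authors' table, Fdft1 and Cyp51 overlap Ctsb and Akap9 on the opposite strand, and Tm7sf2 and Mbtps2 overlap Vps51 and Yy2 on the same strand; the strand setting of the counting is not given in the sources used here, so reads of these genes may be shared.

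Over the 18 enzymes, 3 passed higher and 3 lower in the reported fit (16.7% each way), near the 13.7% and 13.8% of all genes. This even split depended on the setting. With the DESeq2 test or the replicate block Fdft1, Cyp51 and Ebp also passed lower, and no further enzyme passed higher. With the GC correction Hmgcs1, Pmvk, Fdft1, Ebp and Sc5d also passed lower, and Tm7sf2 no longer passed. The shares of all genes in these settings are given above. In the reported fit the log2 fold change was below 0 in 12 of the 18 enzymes (66.7%), beside 45.8% of all genes, and the median was -0.32. At the branch of farnesyl pyrophosphate the balance of the neighbouring enzymes differed between the genotypes. By TPM, which allows genes of different length to be compared, Fdps stood at 5.52, 6.79 and 5.46 times Fdft1 in the Rpl22+/+ libraries and at 33.8, 31.8 and 29.5 times Fdft1 in the Rpl22-/- libraries. The TPM ratio of Lss to Msmo1 was 0.111, 0.149 and 0.102 in Rpl22+/+ and 0.585, 0.301 and 0.508 in Rpl22-/-. In Rpl22-/- replicate 1 a retained-intron transcript absent from all other libraries held 32.3% of the Lss TPM. In Rpl22-/- replicate 3 another transcript that is not protein-coding held 30.7%. The leading, coding Lss transcript was at 1.60, 2.12 and 1.83 TPM in Rpl22+/+ and 3.43, 2.93 and 3.26 TPM in Rpl22-/- (edgeR adjusted p = 0.266). The TPM ratios combine genes already described and are given without a test.

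**Figure D3:**
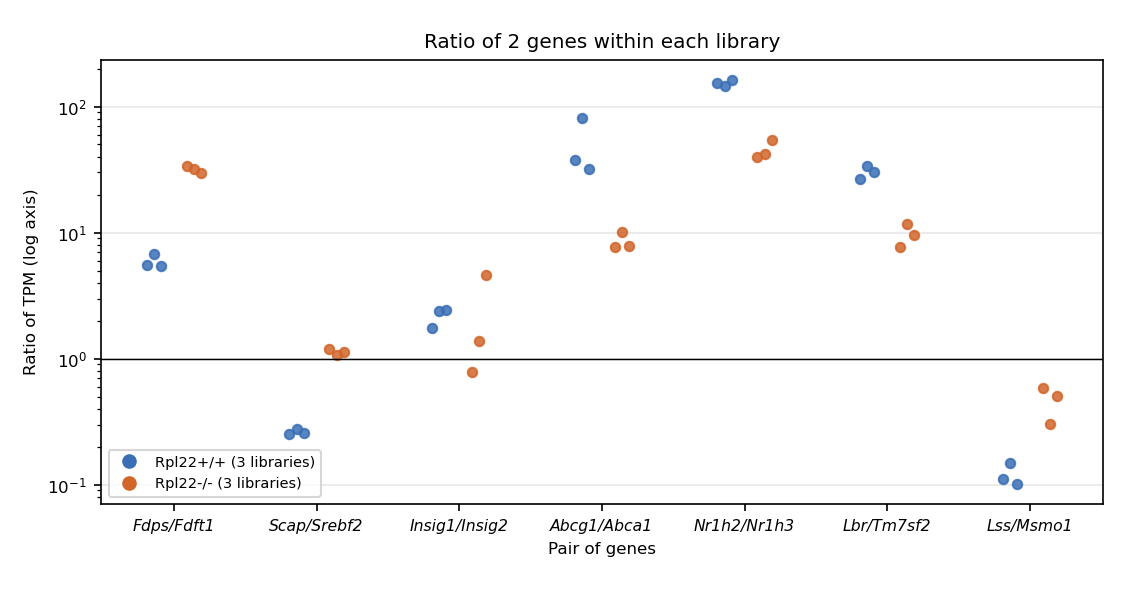
Ratio of the TPM of 2 genes within each library on a log axis, with Rpl22+/+ libraries in blue and Rpl22-/- libraries in orange. The Fdps/Fdft1 ratio lies at 5.46 to 6.79 in Rpl22+/+ and 29.5 to 33.8 in Rpl22-/-, while the Insig1/Insig2 ratio overlaps between the genotypes, at 1.74 to 2.41 and 0.786 to 4.61.

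Of the genes for transport and efflux, Abca1 rose from a low level. Abca1, which exports cholesterol to lipid-poor apolipoprotein particles (chr4:53030787-53159895), was at 1.97, 1.15 and 2.00 CPM in Rpl22+/+ and 9.76, 8.74 and 9.72 CPM in Rpl22-/-. The log2 fold change was 2.46 (SE 0.26, edgeR adjusted p = 0.000983), the largest among the 29 genes in the reported fit. Under the 18 other ways of processing it ranged from 0.90 to 2.59. The value of Fdps was 1.70 or more in all of them, so the rank did not hold throughout. Abca1 remained at 1.26 ± 0.25 TPM in Rpl22-/- (SD, n = 3), against 0.207 ± 0.080 TPM in Rpl22+/+. Genes of chromosome 4, which also carries Rpl22, had the raised median given above. The 27 genes within 5 Mb of Abca1 had a median of 0.36, with 1 above the value of Abca1, and the part of the chromosome in the difference was not tested.

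Abcg1, which exports cholesterol to larger lipoprotein particles, was at 32.6, 45.9 and 34.4 CPM in Rpl22+/+ and 38.6, 47.6 and 40.3 CPM in Rpl22-/-. The groups overlapped, and the log2 fold change was 0.16 (SE 0.18, edgeR adjusted p = 0.556). By TPM, Abcg1 stood at 37.6, 81.7 and 32.1 times Abca1 in the Rpl22+/+ libraries and at 7.74, 10.1 and 7.83 times in the Rpl22-/- libraries. Stard4, a soluble carrier of sterol between membranes, was at 30.1, 31.0 and 30.6 CPM in Rpl22+/+ and 23.1, 25.5 and 25.7 CPM in Rpl22-/-, with no overlap, but did not pass (log2 fold change -0.30, SE 0.12, edgeR adjusted p = 0.107).

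The receptors that control these exporters differed from each other. Nr1h3, which encodes LXR alpha (chr2:91014406-91033179), was at 1.07, 1.54 and 1.07 CPM in Rpl22+/+ and 2.83, 3.44 and 3.08 CPM in Rpl22-/-. It rose in all 3 Rpl22-/- libraries, with a log2 fold change of 1.35 (SE 0.25, edgeR adjusted p = 0.00853). Nr1h2, which encodes LXR beta, was at 129, 181 and 128 CPM in Rpl22+/+ and 106, 128 and 140 CPM in Rpl22-/-, with overlapping groups (log2 fold change -0.23, SE 0.19, edgeR adjusted p = 0.449). Nr1h2 stood at 146 to 162 times Nr1h3 by TPM in Rpl22+/+ and at 40.1 to 54.1 times in Rpl22-/-, so the LXR alpha transcript stayed the lesser of the pair in every library. Nr1h2 has an annotated pseudogene copy, with which its reads may be shared.

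By TPM the order of the members changed at the top. In Rpl22+/+ the highest were Nr1h2 (137 ± 3.94 TPM), Srebf2 (74.5 ± 5.97), Fdps (63.5 ± 11.8) and Ebp (46.3 ± 6.69; SD, n = 3 for each), and the values of Srebf2 and Fdps overlapped between libraries. In Rpl22-/- the highest were Fdps (250 ± 13.4 TPM), Nr1h2 (130 ± 21.8), Scap (51.1 ± 3.81) and Srebf2 (44.9 ± 1.01; SD, n = 3 for each), with no library of Srebf2 reaching those of Scap. Abca1 was the lowest member by mean TPM in both genotypes. In Rpl22-/- replicate 1, Idi1, whose sum is incomplete, was lower (1.49 against 1.53 TPM).

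Single transcripts passed in 5 of the genes. Of 188 transcripts of the members, 115 were tested with all 57835 transcripts that passed the filter, and 9 of them passed (7.83%), beside 6.94% of all transcripts tested. The 7 higher were 5 transcripts of Fdps and the leading transcripts of Scap and Abca1, and the 2 lower were the leading transcripts of Msmo1 and Hsd17b7. The leading transcript of Fdps was at 51.6, 72.8 and 52.0 TPM in Rpl22+/+ and 229, 218 and 213 TPM in Rpl22-/- (log2 fold change of counts 1.71, edgeR adjusted p = 0.0237). It made up 92.5 ± 1.81% of the TPM of the gene in Rpl22+/+ and 88.1 ± 1.52% in Rpl22-/- (SD, n = 3). In all 29 genes the leading transcript was protein-coding, and in 20 it held at least 70% of the gene's TPM. The number of transcripts that passed depended on single libraries: it was 11 without Rpl22+/+ replicate 2, beside 7.55% of all transcripts tested in that fit. It was 2 without Rpl22+/+ replicate 3 (beside 1.37%), 3 without Rpl22-/- replicate 1 or 3 (beside 1.75% and 1.76%), and 4 without Rpl22+/+ replicate 1 or Rpl22-/- replicate 2 (beside 2.35% and 1.64%).

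In 6 members the pass held under all 18 other ways of processing: Scap, Fdps, Abca1 and Nr1h3 stayed higher, and Msmo1 and Hsd17b7 stayed lower. Insig2, Mbtps1, Acat2, Idi1, Sqle, Nsdhl and Abcg1 passed under none of them.

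**Figure D4:**
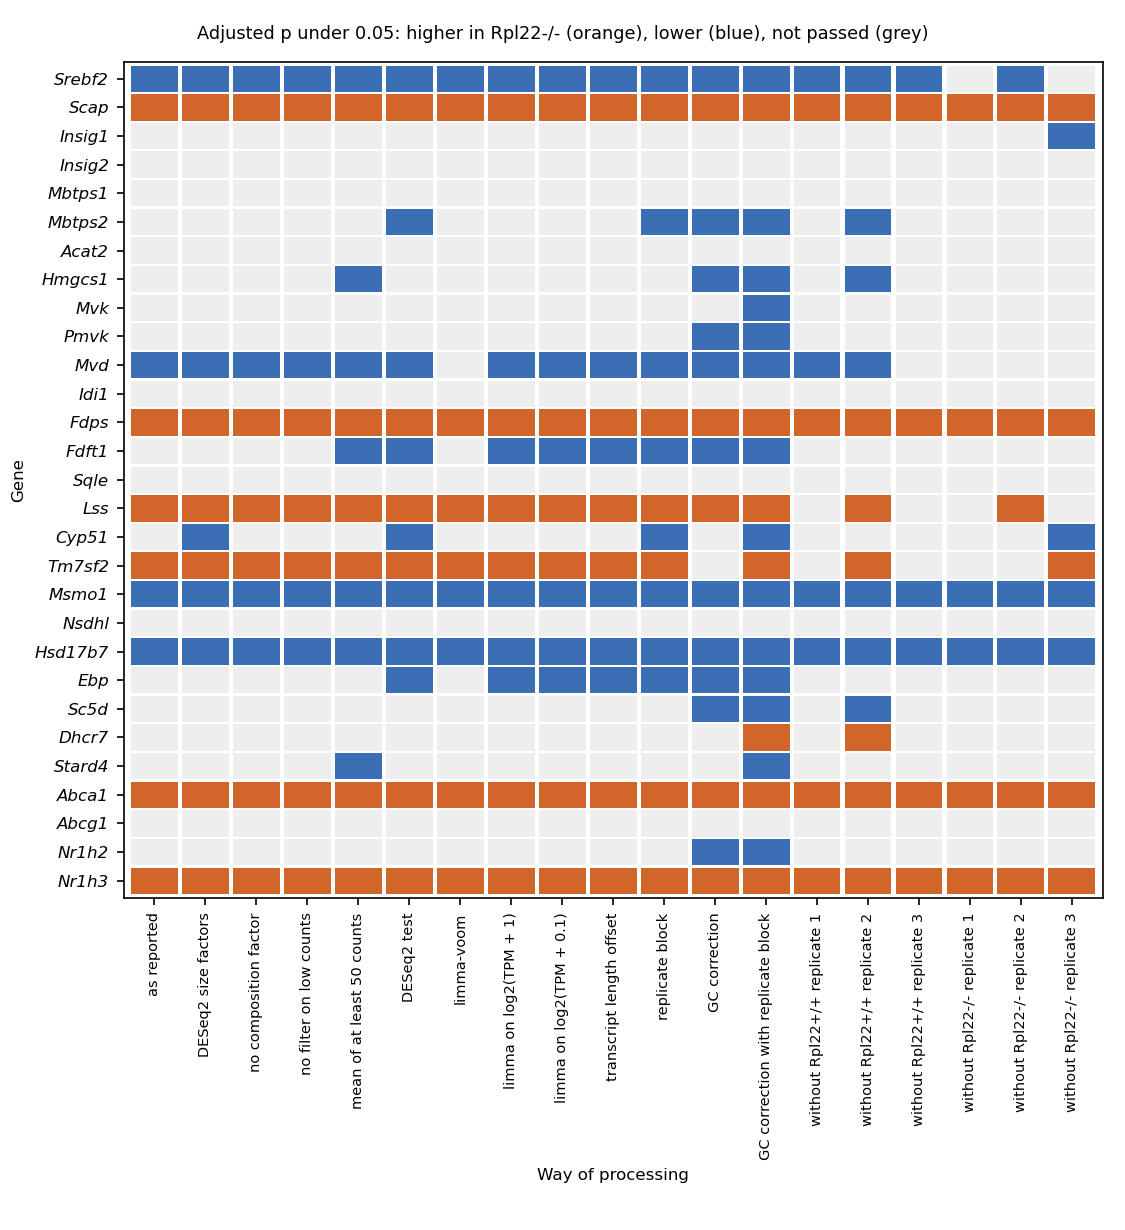
Outcome for each gene (rows) under each way of processing (columns), where orange marks an adjusted p under 0.05 with a higher level in Rpl22-/-, blue one with a lower level and grey an adjusted p of at least 0.05. The 6 rows of Scap, Fdps, Msmo1, Hsd17b7, Abca1 and Nr1h3 are coloured throughout, and blue cells appear in 8 further enzymes under some of the settings (Hmgcs1, Mvk, Pmvk, Mvd, Fdft1, Cyp51, Ebp and Sc5d).

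The surrounding pathway held 54 further genes in 8 lists, of which 50 were tested, and 7 passed higher and 8 lower (30%, beside 27.6% of all genes), with a median log2 fold change of -0.12. In sterol synthesis and among Srebp2 targets, 1 of 5 tested genes passed. Lbr, which shares the reductase step of Tm7sf2 and also holds chromatin at the nuclear envelope, fell (log2 fold change -0.85, edgeR adjusted p = 0.00972), and its TPM ratio to Tm7sf2 went from 26.6 to 33.6 in Rpl22+/+ to 7.66 to 11.6 in Rpl22-/-. Of 6 regulators of the Srebp pathway and of enzyme turnover, 0 passed in edgeR, where 4 had an unadjusted p under 0.05, and 0 passed in DESeq2 or limma-voom.

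Genes of uptake and lysosomal release passed in both directions, 2 higher and 3 lower of 6 tested (33.3% and 50%, beside 13.7% and 13.8% of all genes, which are also the shares to set beside the short lists that follow). Lrp1, an endocytic lipoprotein receptor, was at 244, 475 and 338 CPM in Rpl22+/+ and 109, 120 and 143 CPM in Rpl22-/- (log2 fold change -1.51, edgeR adjusted p = 0.00702). Lrp8, another receptor of that family, was at 18.4, 14.5 and 17.2 CPM in Rpl22+/+ and 78.6, 43.0 and 53.0 CPM in Rpl22-/- (log2 fold change 1.80, edgeR adjusted p = 0.0027). Its gene sum was 0.690 of the base mean in the authors' table, so its values are incomplete. Mylip, a ubiquitin ligase that removes lipoprotein receptors, rose (log2 fold change 0.62), and Lipa and Npc2, which free and carry cholesterol in the lysosome, fell (log2 fold changes -0.70 and -0.83). Of 4 genes of ester storage, Soat1, which esterifies cholesterol, fell from 161, 174 and 174 CPM in Rpl22+/+ to 87.2, 81.5 and 74.5 CPM in Rpl22-/- (log2 fold change -1.07, edgeR adjusted p = 0.00157), and the other three did not pass.

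Of 9 genes of intracellular transfer, 2 were higher and 1 lower (22.2% and 11.1%). Gramd1c, a sterol carrier at membrane contacts, rose from 0.108 to 0.681 CPM to 2.18 to 3.34 CPM (log2 fold change 2.57, edgeR adjusted p = 0.0237), and Gramd1b of the same family fell (log2 fold change -0.75, edgeR adjusted p = 0.0117). Osbpl10, an oxysterol-binding protein, had 1, 3 and 1 reads in the Rpl22+/+ libraries and 21, 51 and 47 reads in the Rpl22-/- libraries (edgeR adjusted p = 0.00152), and its fitted fold change depends on the prior count. Of 4 other efflux and LXR target genes, Abcg4, an exporter, passed with 19, 23 and 25 reads in Rpl22+/+ and 22, 69 and 216 reads in Rpl22-/-, a difference carried mostly by replicate 3 (log2 fold change 1.87, edgeR adjusted p = 0.0431). The other three, Abca7, Lpcat3 and Arl4c, did not pass in edgeR, with log2 fold changes of -0.19, -0.63 and -0.74. In this list 0 genes passed in limma-voom, Abcg4 included, and 3 in DESeq2. Of 2 oxysterol genes tested Cyp27a1, a sterol hydroxylase, fell (log2 fold change -0.60, edgeR adjusted p = 0.0445). Of 14 genes of the isoprenoid branch, Pdss2 and Coq2 of ubiquinone synthesis rose (log2 fold changes 0.55 and 0.50), and Zmpste24, a protease that processes farnesylated lamin, fell from 254 to 288 CPM to 63.3 to 88.1 CPM (log2 fold change -1.85, edgeR adjusted p = 0.000546), while the other 11 did not pass. Of the genes named from these lists, Lrp8 and Zmpste24 lie on chromosome 4, and Osbpl10, Gramd1b and Abcg4 on chromosome 9. The medians of both chromosomes are raised as given above. Gramd1b and Abcg4 lie within 5 Mb of Sc5d, and the 63 genes in that window had a median log2 fold change of -0.06. The part of position in the differences of these genes was not tested.

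**Figure D5:**
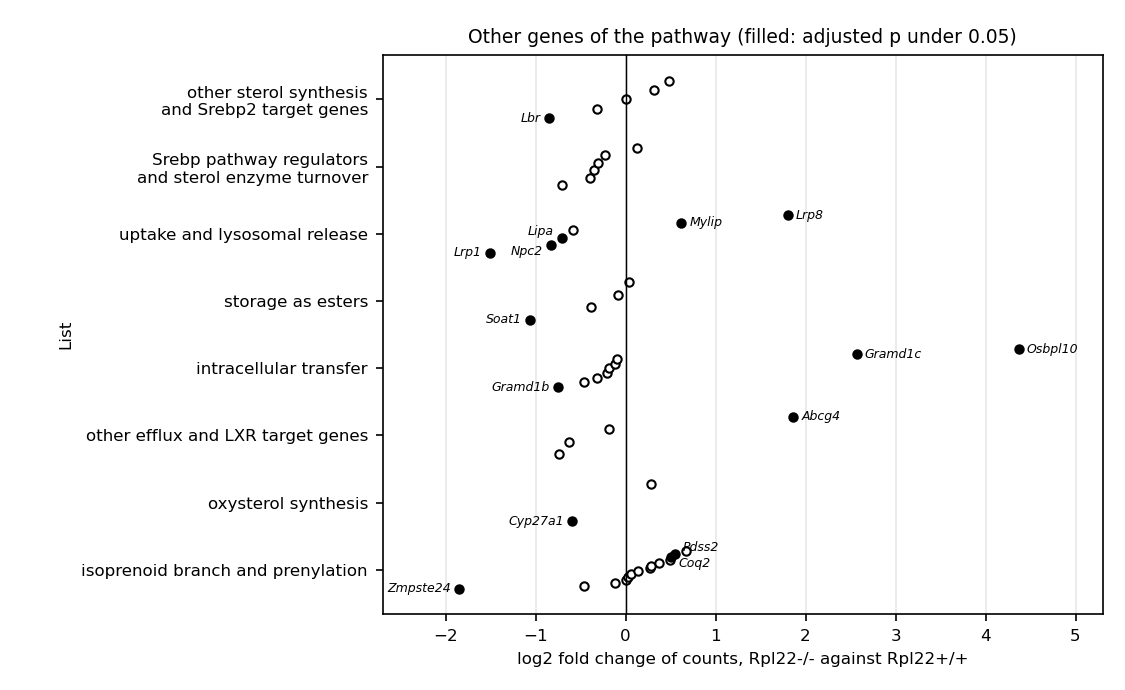
log2 fold change of counts, Rpl22-/- against Rpl22+/+, for the 50 tested genes of the surrounding pathway (points), by list, where filled and named points had an adjusted p under 0.05. Filled points lie on both sides of 0, from Zmpste24 at -1.85 to Osbpl10, whose Rpl22+/+ libraries held 3 reads or fewer.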

How the data were processed

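RNA-seq libraries of CD11b+Gr1+ splenocytes (poly(A) RNA, stranded kit) were grouped by the genotype in the sample labels. The authors used Trimmomatic for trimming and Salmon for transcript abundance on GRCm39 (versions and transcript set not given in the sources used here), and deposited estimated counts and TPM per transcript for each library, with transcript lengths. Their gene table, which the authors deposited with a base mean signal and their own fold changes and p-values, was used only for positions and the base mean.

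Gene totals were formed from the estimated counts by transcript identifier of GENCODE vM21, matched without versions (136036 of 276623 transcripts, 98.0% to 98.1% of reads), and rounded. Because a read is not an independent molecule, precision beyond counting error rests on the 3 libraries of each genotype.

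Genotypes were compared across all genes in edgeR 4.0.16 (R 4.3.3) by its quasi-likelihood F test (TMM, filterByExpr, genotype as the only term). SE is the one implied by F, levels are CPM on TMM-scaled library sizes, and a gene was called where it passed with an absolute log2 fold change over 1. Transcripts were tested in the same way. Alternatives used DESeq2 1.42.0, limma 3.58.1, other scalings and filters, transcript lengths, a lowess GC correction, a replicate block, and each library left out. The scripts were tested on simulated data.

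Deviations from the group means correlated at 0.57, 0.71 and 0.13 between same-numbered libraries over 13202 genes, so the replicate number was used as a block in an alternative fit. The reported fit has no such term, and its p-values are unpaired. The correlation of 0.13 is small, and Rpl22+/+ replicate 3 correlated at 0.43 with Rpl22-/- replicate 1, so these values do not establish a pairing. The labels give no source for a pairing.

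The members and lists were chosen with earlier results of these data known. Full values were given for members that passed and for Srebf2, Scap, the Insig genes, the ABC exporters and the LXR receptors. In the other lists at most the 2 called genes of largest change were to be named. Lbr, Mylip, Lipa, Npc2, Gramd1b, Cyp27a1, Pdss2 and Coq2, which passed without being called, were named after their values were seen, as were the TPM ratios and neighbouring genes. Some genes of the wider pathway are not reported here.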

Additional observations from a re-analysis of the deposited data

How the results depend on the processing

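Over 18 alternatives each, 455 of the 522 values of single members kept their direction and side of the threshold, 16 no longer passed, 42 passed where the reported fit did not and 9 turned sign, and none of the last had passed. Mbtps1 turned to 0.073 without a composition factor, 0.017 with limma on log2(TPM + 1), 0.018 on log2(TPM + 0.1) and 0.023 without Rpl22+/+ replicate 2, and ranged from -0.146 to 0.023 with 1 library left out. Idi1 turned to -0.041 with the GC correction and -0.027 without Rpl22-/- replicate 3, and ranged from -0.027 to 0.454 with 1 library left out. Sqle turned to 0.055 without a composition factor and 0.0028 and 0.0035 with limma on log2(TPM + 1) and log2(TPM + 0.1). Members lower in Rpl22-/- numbered 7 with a mean of at least 50 counts, 8 with the DESeq2 test, 8 with the replicate block, 11 with the GC correction and 14 with both, beside 18.3%, 16.6%, 16.1%, 19.0% and 22.2% of all genes. Leaving out 1 library gave 2 to 7 members lower, 4 to 7 higher and 2 to 11 member transcripts, and 1175 to 3540 of all genes higher and 1392 to 3311 lower. All genes higher numbered 3543 without a composition factor, and 3878 higher and 3691 lower with the GC correction and the replicate block. Among all genes that passed, 49.8% were higher in the reported fit, against 61.5% without a composition factor and 60.1% and 60.4% on log2(TPM + 1) and log2(TPM + 0.1), and over all genes the median log2 fold change moved from 0.07 to 0.19 without a composition factor. With the replicate block Mbtps2, Cyp51, Ebp and Fdft1 passed, and no other member changed its side of the threshold. The causes of these changes were not tested. In the smallest library, of 35828500 reads, 1 CPM is fewer reads than in the others, so counting error is largest there at a given CPM.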
